A study of Rattus norvegicus with 11 samples.

Results

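The aldehyde dehydrogenases of drug and retinal metabolism were described as a set of 9 genes: Aldh1a1, Aldh1b1, Aldh1l1, Aldh2, Aldh3a1, Aldh3a2, Aldh7a1, Aldh8a1 and Aldh9a1. A gene entered when a probe set on the array carried its symbol, and no other, in the platform annotation, which held for 8 of the 9. Aldh8a1, an enzyme of tryptophan breakdown, had no such probe set and was not analysed here. Each of the 8 had 1 probe set, so the brightest probe set of a gene was also its only one. They were 8 of 14217 genes with a probe set of 1 symbol, and all 8 were among the 10714 genes past the signal filter. Livers came from 8 Wistar rats given the high dose of mequindox (animals 2, 3, 4, 5, 6, 8, 10 and 11) and from 3 control Wistar rats (animals 1, 2 and 9), with 1 array per animal. Mequindox is a veterinary antibacterial of the quinoxaline di-N-oxide class. Neither the amount given, nor the length of treatment, nor what controls received is stated in the sources used here, and the labels name no separate batches. All rats were labelled 9 weeks old except high-dosed animal 8, labelled 10 weeks. The 2 groups had been picked for arrays after metabolite profiles of liver extracts and clinical chemistry were known.

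Aldehyde dehydrogenases use NAD or NADP to oxidise aldehydes to carboxylic acids. They clear aldehydes that arise from ethanol, lipids, amino acids and drugs, and some of them turn retinal into retinoic acid, the ligand of the retinoic acid receptors. The liver is among the tissues richest in these enzymes. Cytosolic Aldh1a1 and mitochondrial Aldh2 are abundant there, while Aldh3a1 is known in rats as a gene that is barely expressed in normal liver and is induced through the aryl hydrocarbon receptor.

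Of the 8 measured genes, 1 rose in high-dosed animals, Aldh1a1, and 0 fell, while 7 did not pass the test. The test was limma on log2 intensity, and a gene was called at a Benjamini-Hochberg adjusted p below 0.05. At the same threshold 10.6% of all genes tested were called (7.91% higher and 2.74% lower), so 1 of 8 is close to the background share. Fitted over probe sets instead of genes, 1 of the 8 was called again, Aldh1a1, against 6.92% of all probe sets. The 7 others all had a log2 fold change below 0, from -0.22 for Aldh1l1 to -0.03 for Aldh1b1. The median log2 fold change over the 8 was -0.09, against 0.02 over all genes tested. At an unadjusted limma p below 0.05, 3 of the 8 passed, Aldh1a1, Aldh3a2 and Aldh9a1, and 25.7% of all genes did so.

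**Figure D1:**
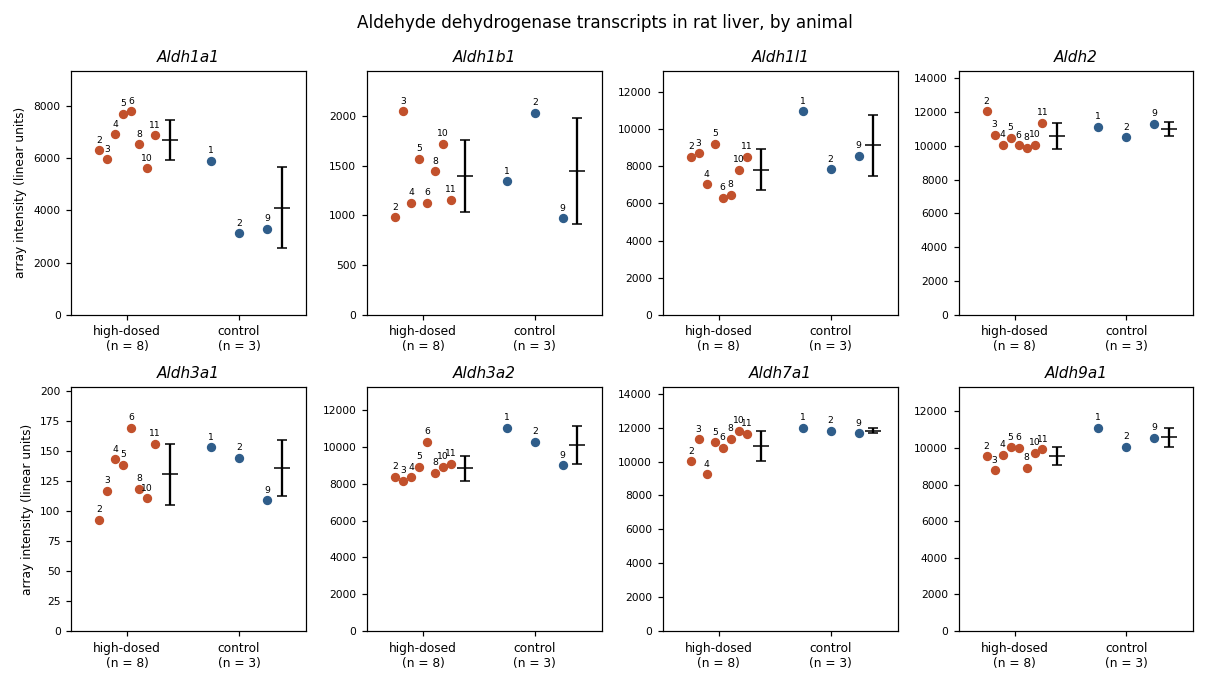
Array intensity (linear units, each axis from 0) of the 8 measured aldehyde dehydrogenases in every animal; numbers are animal numbers, black marks are group means with SD (8 high-dosed, 3 control). For Aldh1a1 control animal 1 sits at 5904, inside the high-dosed range of 5615 to 7792, and controls 2 and 9 sit at 3121 and 3292.

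Aldh1a1 encodes the cytosolic retinal dehydrogenase, which also oxidises aldehydes formed from lipids and from some drugs. Its intensity in high-dosed animals 2, 3, 4, 5, 6, 8, 10 and 11 was 6298, 5951, 6912, 7692, 7792, 6533, 5615 and 6874. In control animals 1, 2 and 9 it was 5904, 3121 and 3292. The high-dosed animals formed a narrow band with a highest value 1.39 times the lowest, and 7 of the 8 lay above every control. The controls did not form one band: animal 1 stood among the high-dosed values and above high-dosed animal 10, so the groups overlapped. The means were 6709 ± 773 in high-dosed animals (SD, n = 8) and 4106 ± 1560 in controls (SD, n = 3).

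Aldh1a1 rose 1.69-fold (95% interval 1.33 to 2.15; log2 fold change 0.75 ± 0.16, SE, limma adjusted p = 0.0124). All 8 high-dosed animals lay above the control mean on the log2 scale. An exact two-sided permutation test over the 165 arrangements of the 11 animals gave p = 0.0121, where 0.00606 is the smallest that design allows. The call was lost without control 2 (0.59, limma adjusted p = 0.0616) and without control 9 (0.63, limma adjusted p = 0.0593). Without control 1 the log2 fold change was 1.04 (limma adjusted p = 0.000837).

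**Figure D2:**
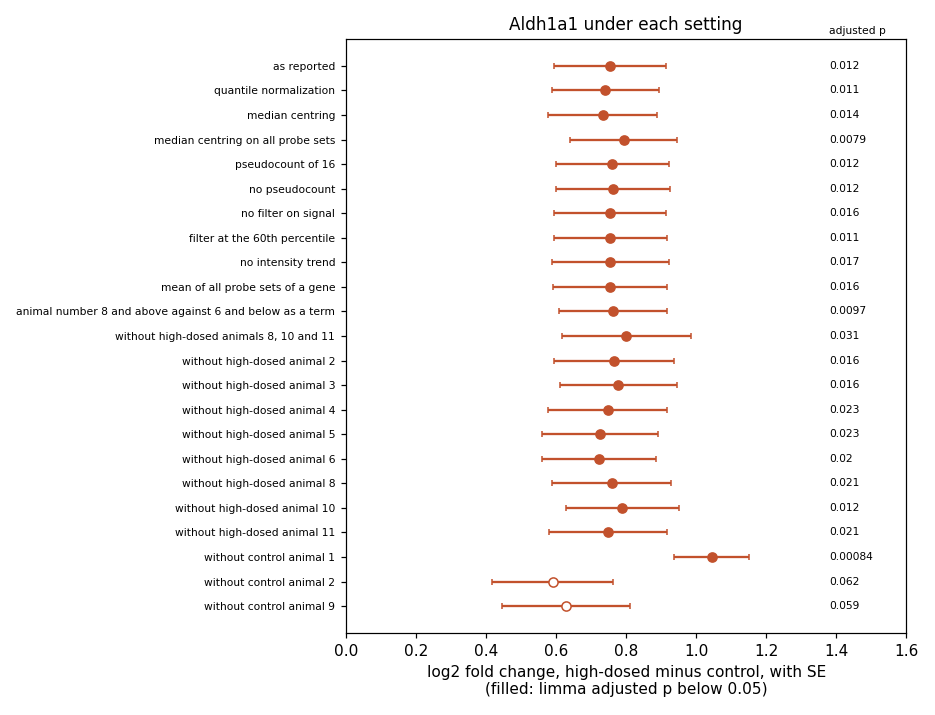
Log2 fold change of Aldh1a1, high-dosed minus control, with its SE, as reported and under each other setting; filled points have a limma adjusted p below 0.05. Values lie between 0.59 and 1.04, and the open points are the settings without control 2 and without control 9.

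The promoter window of Aldh1a1 is shown because it is the gene that was called, with those of Aldh3a2 and Aldh9a1, the members with the next lowest p. RefSeq windows on build GRCr8 were found for 7 of the 9 genes, so Aldh2 and Aldh3a1 could not be searched. The 250 bases before the annotated start are printed, 5′ to 3′ on the strand of the gene. Capitals mark CCAAT boxes (CCAAT) in all 3, and in addition the octamer (ATGCAAAT) and a TATA-like run (ATAAAA) in Aldh1a1 and the core GCGTG of the dioxin response element, the site the aryl hydrocarbon receptor binds, in Aldh3a2 and Aldh9a1. Both strands were searched, so a match on the other strand appears as its reverse complement.
Aldh1a1, chr1:227537370-227537619, plus strand: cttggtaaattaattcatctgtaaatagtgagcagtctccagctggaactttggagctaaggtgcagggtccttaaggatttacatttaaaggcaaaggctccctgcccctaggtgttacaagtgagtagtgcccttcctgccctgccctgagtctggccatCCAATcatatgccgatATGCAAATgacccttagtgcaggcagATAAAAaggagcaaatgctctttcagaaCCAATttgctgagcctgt
Aldh3a2, chr10:46448336-46448585, minus strand: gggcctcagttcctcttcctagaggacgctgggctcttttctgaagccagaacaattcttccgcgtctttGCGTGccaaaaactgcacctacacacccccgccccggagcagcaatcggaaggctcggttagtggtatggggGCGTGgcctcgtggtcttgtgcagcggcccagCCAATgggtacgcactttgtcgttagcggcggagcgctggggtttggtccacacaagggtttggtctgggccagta
Aldh9a1, chr13:82038429-82038678, plus strand: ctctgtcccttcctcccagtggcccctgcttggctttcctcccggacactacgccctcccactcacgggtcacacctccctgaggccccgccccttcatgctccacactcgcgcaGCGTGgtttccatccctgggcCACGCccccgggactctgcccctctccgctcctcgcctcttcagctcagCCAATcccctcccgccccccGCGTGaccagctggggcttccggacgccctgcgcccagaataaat

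Within its window Aldh1a1 held CCAAT at 88 and 18 bases, the octamer at 72 bases and ATAAAA at 46 bases before the start. The octamer was found in 1.56% of the 33469 RefSeq promoter windows of the same length, CCAAT in 34% and ATAAAA in 18.6%. Among the members the octamer occurred in 1 other window, that of the unmeasured Aldh8a1, at 69 bases before the start. GCGTG occurred 2 times in the Aldh3a2 window, 3 times in that of Aldh9a1 and 1 time in that of Aldh7a1, and in 25.9% of all windows. Aldh1a1 held neither GCGTG, nor the nuclear receptor core AGGTCA (14.1% of windows), nor the antioxidant response core TGACNNNGC (10.1%), nor the GC box GGGCGG (30.5%). The letters searched were chosen with the sequences in view, and a match is a description of these bases only.

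Cyp7a1, the rate-limiting enzyme of bile acid synthesis, had the profile nearest to that of Aldh1a1. Likeness was the mean absolute difference between log2 profiles centred on their mean over the 11 arrays, and it was 0.117 for Cyp7a1, 0.150 for Lpin2 and 0.158 for Jade1. The median over the 10611 genes compared was 0.329. Cyp7a1 had a log2 fold change of 0.73 that was not called (limma adjusted p = 0.0526). It was called without control 1 (1.13, limma adjusted p = 0.00373), and also with a term for animal number (8 or higher, against 6 or lower), with the signal filter at the 60th percentile and after centring on all probe sets (limma adjusted p = 0.0386, 0.0468 and 0.0384). Lpin2, a phosphatidate phosphatase, rose by 0.69 (limma adjusted p = 0.0255), and Jade1 rose by 0.84 (limma adjusted p = 0.000354). Cyp7a1 shared the uneven controls of Aldh1a1: on the centred log2 scale controls 1, 2 and 9 stood at 0.26, -0.83 and -1.03. In Jade1 the 3 controls lay close together, from -0.63 to -0.59. Lpin2 was not called without control 2 or without control 9 (highest adjusted p = 0.109), and without control 9 Cyp7a1 stood at 0.49 (limma adjusted p = 0.23). Averaged over all probe sets of a gene, Lpin2 was at 0.40 and Jade1 at 0.47, and both were called (limma adjusted p = 0.0351 and 0.00527).

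**Figure D3:**
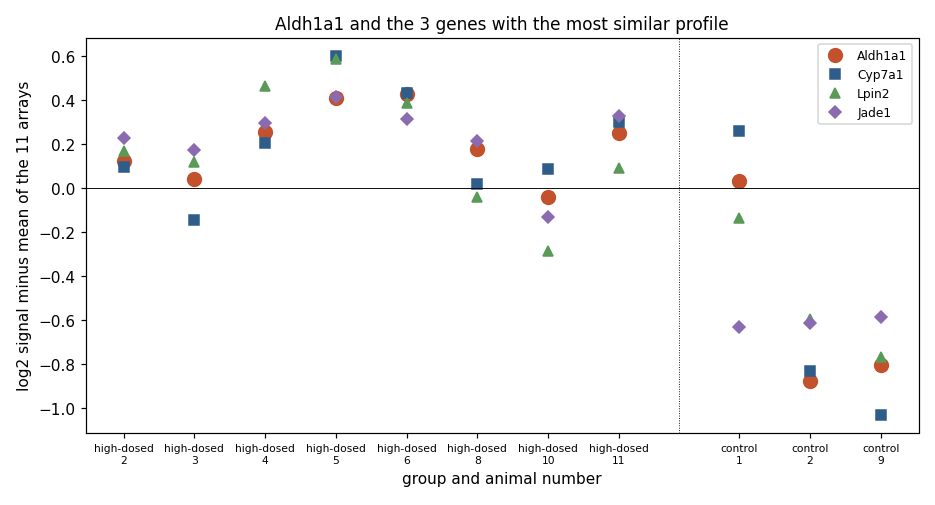
Log2 signal minus the mean of the 11 arrays for Aldh1a1 and for the 3 genes with the smallest mean absolute difference to it (Cyp7a1 0.117, Lpin2 0.150, Jade1 0.158), by animal. Control 1 lies near or above 0 for Aldh1a1 and Cyp7a1 and at -0.63 for Jade1.

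The control pattern of Aldh1a1, control animal 1 inside the high-dosed range with controls 2 and 9 both below it, was counted over all genes. It held for 152 of the 10714 genes tested (1.42%) and for 20 of the 847 genes called higher (2.36%). Aldh1a1, Cyp7a1, Lpin2, Nr1i3 and Abcc3 were among the 152. The pattern was taken from Aldh1a1 itself, and Cyp7a1 and Lpin2 were picked for likeness to it. Nr1i3 was named after its values were seen. That these genes show the pattern is therefore no evidence of a shared trait, and whether its share exceeds chance was not tested. On its array-wide measures control 1 lay inside the range of the high-dosed animals: median intensity ran from 149.02 to 186.57 in high-dosed animals and from 162.09 to 176.4 in controls, with 170.84 in control 1. The 3′ to 5′ signal ratio of the Gapdh control probe sets ran from 1.18 to 1.32 in high-dosed animals and from 1.21 to 1.25 in controls, with 1.21 in control 1.

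Aldh1b1 and Aldh2 are the mitochondrial enzymes of acetaldehyde oxidation, and neither changed by the test. On the log2 scale Aldh1b1 had the widest spread within each group among the 8 genes. Its intensity in high-dosed animals 2, 3, 4, 5, 6, 8, 10 and 11 was 979, 2045, 1125, 1566, 1127, 1441, 1718 and 1157. In controls 1, 2 and 9 it was 1342, 2028 and 969. The highest value was 2.09 times the lowest within each group, and the groups overlapped over nearly their whole range. The SD of its log2 signal over the high-dosed animals was 0.35, against a median of 0.14 over all genes tested. Between groups it differed by -0.03 ± 0.23 on the log2 scale (SE, limma adjusted p = 0.953), and the 95% interval ran from -30.2% to 37.9%, so a change of moderate size was not detectable with these arrays. Its sign turned when any 1 of 5 arrays was left out.

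Aldh2 had intensities of 9888 (lowest), 10277 (median) and 12028 (highest) in high-dosed animals, against 11102, 10497 and 11312 in controls 1, 2 and 9. High-dosed animals 2 and 11 lay above all controls and animal 3 between controls 2 and 1, while 5 of the 8 lay below every control. The log2 fold change was -0.06 ± 0.06 (SE, limma adjusted p = 0.591). Its 95% interval, from -11.7% to 4.89%, was the second narrowest of the 8 genes after that of Aldh9a1.

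Aldh3a1 and Aldh3a2 stand next to each other on rat chromosome 10, with 0 protein-coding genes between them in the GRCr8 gene table. Aldh3a1 oxidises aromatic aldehydes and the active metabolite of cyclophosphamide, and Aldh3a2 is the fatty aldehyde dehydrogenase of the endoplasmic reticulum. Aldh3a1 was dim, with a mean log2 signal of 7.54 that lay just above the filter value of 7.40. Its intensity was 92.9 (lowest), 129 (median) and 170 (highest) in high-dosed animals, and 153, 145 and 109 in controls 1, 2 and 9. The control values fell inside the high-dosed range. The log2 difference was -0.04 ± 0.12 (SE, limma adjusted p = 0.865), with a 95% interval from -19.2% to 17% on a scale that understates changes of dim genes. Without detection calls, whether Aldh3a1 was above background was not determined.

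Aldh3a2 had an intensity of 8390, 8154, 8364, 8930, 10276, 8603, 8928 and 9096 in high-dosed animals 2, 3, 4, 5, 6, 8, 10 and 11. In controls 1, 2 and 9 it was 11059, 10290 and 9007. High-dosed animal 6 stood apart at the top of its group and animal 11 lay just above control 9, while the other 6 lay below every control. Aldh3a2 was not called, with a log2 fold change of -0.19 ± 0.07 (SE, limma adjusted p = 0.103). Without high-dosed animal 6 it was -0.22 (limma adjusted p = 0.0347) and without control 9 it was -0.27 (limma adjusted p = 0.0439), while without control 1 it was -0.13 (limma adjusted p = 0.464), so single animals decided the call.

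Aldh1l1, Aldh7a1 and Aldh9a1 serve folate, lysine and carnitine metabolism. Aldh1l1 is the cytosolic formyltetrahydrofolate dehydrogenase, which removes one-carbon units from the folate pool. Its intensity in high-dosed animals 2, 3, 4, 5, 6, 8, 10 and 11 was 8520, 8702, 7033, 9212, 6297, 6467, 7806 and 8524. In controls 1, 2 and 9 it was 10962, 7849 and 8567. Control 1 was the highest of the 11, and the other 2 controls lay inside the high-dosed range. Aldh1l1 differed by -0.22 ± 0.13 on the log2 scale (SE, limma adjusted p = 0.305), and it ran from -0.32 to -0.08 when single arrays were left out, -0.08 being the value without control 1.

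Aldh7a1, also called antiquitin, oxidises the semialdehyde formed in lysine breakdown as well as betaine aldehyde. It had intensities of 9250 (lowest), 11219 (median) and 11829 (highest) in high-dosed animals, and of 12000, 11819 and 11676 in controls 1, 2 and 9. The 3 controls were nearly equal, and 7 of the 8 high-dosed animals lay below all of them, with high-dosed animal 10 between controls 1 and 2. The log2 fold change was -0.12 ± 0.06 (SE, limma adjusted p = 0.276).

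Aldh9a1 oxidises trimethylaminobutyraldehyde, a step of carnitine synthesis, and aminobutyraldehydes. Its intensity in high-dosed animals 2, 3, 4, 5, 6, 8, 10 and 11 was 9532, 8782, 9620, 10031, 10010, 8908, 9729 and 9930. In controls 1, 2 and 9 it was 11105, 10051 and 10568. All 8 high-dosed animals lay below every control, though the highest of them, animal 5, had 10031 against 10051 in control 2. Aldh9a1 was not called, with a log2 fold change of -0.14 ± 0.05 (SE, limma adjusted p = 0.0788), or -9.5% with a 95% interval from -15.9% to -2.65%. With single arrays left out it ran from -0.18 to -0.11, -0.11 being the value without control 1 (limma adjusted p = 0.356). Aldh9a1 was the 1 member of 8 whose groups did not overlap, and 12.1% of all genes tested showed the same.

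**Figure D4:**
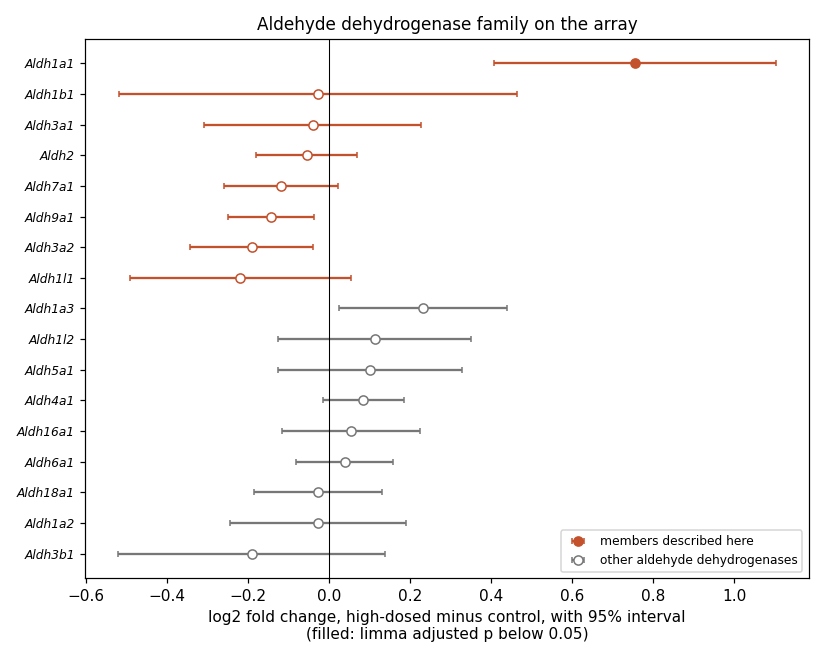
Log2 fold change, high-dosed minus control, with 95% interval from limma, of the 8 measured members and of 9 other aldehyde dehydrogenases on the array; filled points passed the adjusted test. Aldh1a1 stands alone at 0.75, and the other 16 genes lie between -0.22 and 0.23.

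Among the 8 genes control animal 1 was the highest of the 11 animals for 4, Aldh1l1, Aldh3a2, Aldh7a1 and Aldh9a1, and the lowest for 0. High-dosed animal 6 was the highest of the high-dosed animals for 3, Aldh1a1, Aldh3a1 and Aldh3a2, and the lowest of them for Aldh1l1. High-dosed animals 2 and 3 were each the highest of all 11 for 1 gene and the lowest for 1 and 2 genes. Of 11 other aldehyde dehydrogenases listed, Aldh1a7 and Aldh3b2 had no probe set of 1 symbol and were not measured. The 9 measured ones (Aldh1a2, Aldh1a3, Aldh1l2, Aldh3b1, Aldh4a1, Aldh5a1, Aldh6a1, Aldh16a1 and Aldh18a1) had 0 calls by limma at the adjusted threshold. Their median log2 fold change was 0.05. At an unadjusted limma p below 0.05, 1 of the 9 passed, against 25.7% of all genes tested. The 1 was Aldh1a3, another retinal dehydrogenase. Its intensity ran from 759 to 983 in high-dosed animals, against 687, 833 and 646 in controls 1, 2 and 9. Its log2 fold change was 0.23 ± 0.10 (SE, limma adjusted p = 0.147). The lowest 3 values of the high-dosed animals for Aldh1a3 were those of animals 8, 10 and 11. Their arrays also had the lowest median intensities of the 11, at 149.33, 153.02 and 149.02. Whether animal number or array scale went with the Aldh1a3 values was not tested. With a term that separates animals numbered 8 or higher from those numbered 6 or lower, Aldh1a3 was called (0.24, limma adjusted p = 0.0362), as it was after centring on all probe sets (0.27, limma adjusted p = 0.0437). Without animals 8, 10 and 11 it was not called (0.32, limma adjusted p = 0.0629). The calls over the 8 members were the same without those 3 animals, when Aldh1a1 was at 0.80 (limma adjusted p = 0.0309).

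Of 21 measured genes of a list of 27 that make, bind and use retinol and retinoic acid, 1 rose, 2 fell and 18 did not pass (median log2 fold change -0.05), beside 10.6% called among all genes tested. Rdh11, a retinal reductase, had a log2 fold change of -0.36 ± 0.07 (SE, limma adjusted p = 0.00638), with intensities of 1225 to 1473 in high-dosed animals and 1936, 1695 and 1751 in controls 1, 2 and 9. Cyp26a1, the hydroxylase that degrades retinoic acid and is itself a target of retinoic acid, fell by 0.65 ± 0.19 (limma adjusted p = 0.0459). Its intensities were 213 to 424 in high-dosed animals and 749, 410 and 404 in controls 1, 2 and 9, with an overlap at high-dosed animal 11. The retinoic acid receptor Rarg, a dim transcript, rose by 0.31 ± 0.09 (limma adjusted p = 0.0499). The calls of Cyp26a1 and Rarg were lost when any 1 of 9 and of 10 arrays was left out, and that of Rdh11 without control 1 (adjusted p = 0.0541).

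Of 18 measured partners in alcohol and aldehyde metabolism of 21 listed, 2 rose, 0 fell and 16 did not pass (median log2 fold change 0.01). Among all genes tested 10.6% were called. The aldehyde reductase Akr7a2 rose by 0.38 ± 0.07 (limma adjusted p = 0.00747), with intensities of 4155 to 5103 in high-dosed animals and 4044, 3524 and 3353 in controls 1, 2 and 9. Aldose reductase, Akr1b1, rose by 0.34 ± 0.08 (limma adjusted p = 0.0209). Averaged over all its probe sets the value of Akr1b1 was 0.09 (adjusted p = 0.444), and it was also not called without control 1 or without control 9 (up to an adjusted p of 0.143).

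Lists of folate one-carbon metabolism, of lysine and tryptophan breakdown, and of choline, betaine and carnitine metabolism hold the partners of Aldh1l1, Aldh7a1, Aldh8a1 and Aldh9a1. Each had 1 called gene, beside 10.6% called among all genes tested. In the folate one-carbon list 1 of 18 measured genes of 24 fell, Shmt2, the mitochondrial serine hydroxymethyltransferase (-0.46 ± 0.11, SE, limma adjusted p = 0.0183; median of the list -0.03). In the list of lysine and tryptophan breakdown 1 of 15 measured genes of 17 fell, Kynu, the kynureninase of tryptophan breakdown (-0.38 ± 0.10, SE, limma adjusted p = 0.0307; median of the list -0.06). In the choline, betaine and carnitine list 1 of 9 genes fell, Chka, a choline kinase (-0.86 ± 0.23, SE, limma adjusted p = 0.0319; median of the list -0.04). Groups did not overlap for any of these 3 genes, as for 12.1% of all genes tested. The 3 were named because they were called, so the lack of overlap is not a separate result. None of the 3 was called without control 1 or without control 2, with a largest adjusted p over single arrays of 0.0962 for Shmt2, 0.104 for Kynu and 0.132 for Chka.

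Of 8 measured genes of a list of 14 that holds PPAR alpha and its targets, 2 rose, 1 fell and 5 did not pass. The median log2 fold change was -0.07, and 10.6% of all genes tested were called. Whether the list differs from other genes was not tested. PPAR alpha is the fatty acid receptor that is known to induce Aldh3a2 in rodents. Vnn1 rose by 1.42 ± 0.30 and the carnitine palmitoyltransferase Cpt1a by 0.81 ± 0.22, and the kinase Pdk4 fell by 0.68 ± 0.12 (limma adjusted p = 0.0123, 0.0351 and 0.00544). Without control 9 the call of Vnn1 was lost (adjusted p = 0.0601), and that of Cpt1a was lost when any 1 of 5 arrays was left out.

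**Figure D5:**
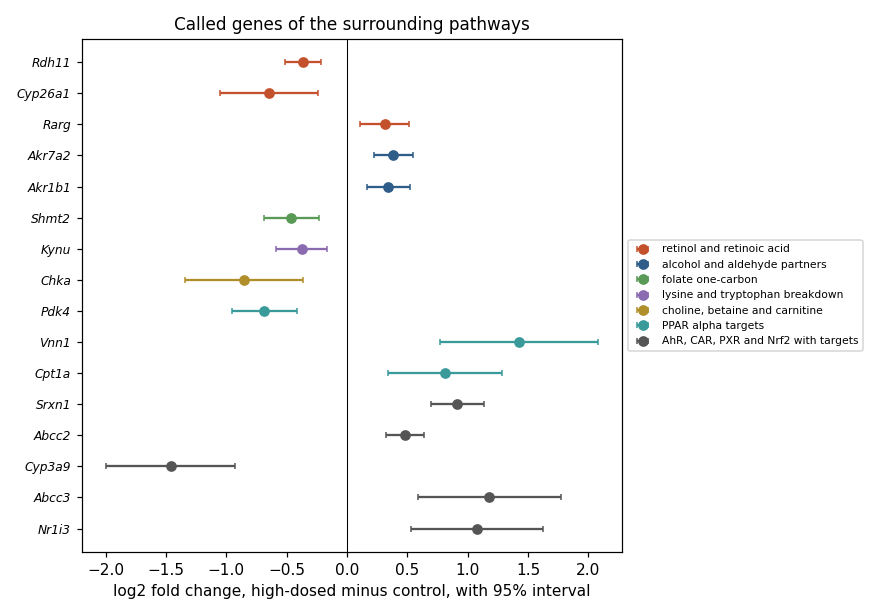
Log2 fold change, high-dosed minus control, with 95% interval from limma, of called genes named from the lists around the aldehyde dehydrogenases, coloured by list. Nfe2l2 and Nqo1, also called, are not drawn. Values run from -1.46 for Cyp3a9 to 1.42 for Vnn1, and every list with more than 1 gene shown except that of alcohol and aldehyde partners has points on both sides of 0.

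In a list of receptors that sense drugs and of their targets, 5 of 20 measured genes of 23 rose, 2 fell and 13 did not pass (median log2 fold change 0.11, against 0.02 over all genes, of which 10.6% were called). Whether the list differs from other genes was not tested. The list holds the aryl hydrocarbon receptor, which induces Aldh3a1, and CAR, PXR and Nrf2 with their targets. Srxn1, a target of Nrf2, rose by 0.91 ± 0.10 (limma adjusted p = 0.000388), or by 0.30 averaged over all its probe sets (limma adjusted p = 0.0177), and the exporter Abcc2 by 0.48 ± 0.07 (limma adjusted p = 0.00244). Cyp3a9 fell by 1.46 ± 0.25 (limma adjusted p = 0.00408). Abcc3, an exporter induced through CAR, rose by 1.18 ± 0.27 (limma adjusted p = 0.0188). Nr1i3, which encodes CAR itself and was named after its values were seen, rose by 1.08 ± 0.25 (limma adjusted p = 0.0194). The remaining 2 called genes, also named after their values were seen, were Nfe2l2 (0.29), encoding Nrf2, and Nqo1 (-0.51), a target of Nrf2 and of the aryl hydrocarbon receptor.

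Nr1i3 and Abcc3 had the same uneven controls as Aldh1a1. Nr1i3 had intensities of 574 (lowest) to 1195 (highest) in high-dosed animals, and of 625, 216 and 275 in controls 1, 2 and 9. Abcc3 had intensities of 672 (lowest) to 1017 (highest) in high-dosed animals, and of 807, 213 and 233 in controls 1, 2 and 9. For each of the 2 genes control 1 lay inside the high-dosed range and the other controls below it. Neither was called without control 2 or without control 9, as for Aldh1a1 (largest adjusted p over single arrays 0.0937 for Nr1i3 and 0.0908 for Abcc3).

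Markers of liver cell types were measured beside these genes, since in bulk tissue fewer cells of a type and less RNA per cell cannot be told apart. Among all genes tested 10.6% were called, and 25.7% had an unadjusted limma p below 0.05. Of 7 measured hepatocyte markers 1 rose, Apoa1 (log2 fold change 0.35), and 1 fell, Asgr1 (-0.18). Albumin had a mean intensity of 33976 in high-dosed animals and 33948 in controls. Both means lay close to 34328, the highest value on any array, so a rise in albumin could have been hidden. Of 7 pericentral hepatocyte markers 0 rose and 0 fell (4 at an unadjusted limma p below 0.05). Of 7 periportal ones 1 rose, Sds (log2 fold change 2.13), and 1 fell, Hal (-0.56). Of 8 markers of stellate cells, which store retinoids, 0 rose and 0 fell, and 1 passed at an unadjusted limma p below 0.05 (summed intensity 9868 to 14173 in high-dosed animals and 9982 to 10699 in controls). Of 6 endothelial markers 3 rose and 0 fell, and 5 had an unadjusted limma p below 0.05. Their summed intensities were 11206 to 12341 in high-dosed animals and 9840 to 10958 in controls, ranges that did not overlap. Taken singly, 12.1% of all genes tested had groups that did not overlap. Of the 6 markers 5 had a log2 fold change above 0, and Lyve1 went the other way (-0.12). Of 8 macrophage markers 1 rose and 0 fell, and 4 had an unadjusted limma p below 0.05. Their summed intensities were 22663 to 30827 in high-dosed animals and 17301 to 23725 in controls. The cholangiocyte list had 2 of 6 markers past the filter, of which 1, Epcam, rose, while Krt19, Krt7 and Cftr lay under the filter. Lymphocyte, neutrophil and red blood cell markers had 2 measured members each and 0 calls by limma, also 0 at an unadjusted p below 0.05. The part of these cell types in the values of the aldehyde dehydrogenases was not tested.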

How the data were processed

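Liver RNA of 11 rats was measured on 1 Affymetrix array each. The deposited values were the authors' probe set intensity on a linear scale, with 31099 probe sets and values between 1 and 34328. MAS5 is named in the submitters' processing notes, with no version or role, and scaling between arrays was not given in the sources used here. Per the labels' protocols, RNA was extracted with Trizol and labelled with biotin. Genes were named from the platform annotation, and all 8 member symbols matched the GRCr8 RefSeq gene table by Entrez identifier. No probe sequences were used, so cross-hybridisation between relatives was not tested.

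Intensity was transformed as log2(intensity + 55.26), the pseudocount being the 20th percentile of all values. Control probe sets (57) were removed, as was any probe set whose mean log2 signal over the arrays was below the 40th percentile (7.40). A gene was its brightest probe set of 1 symbol. High-dosed animals were compared with controls by limma 3.58.1 in R 4.3.3 with an intensity trend, over 10714 genes. The fit over 18625 probe sets (6.92% called) called the same 1 member. The script was tested on simulated data. The precision is limited by the 3 control arrays.

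Named genes were all members, up to 4 called genes per list by adjusted p (otherwise the gene with the lowest) and the 3 genes most alike to Aldh1a1. The members, lists, tests and alternatives were chosen with earlier results of these data known. Alternatives were scaling, pseudocount, filter, variance trend, probe set averaging, animal number and single arrays left out.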

Additional observations from a re-analysis of the deposited data

Results flagged for a closer look

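In Aldh3a2 high-dosed animal 6 stood above the other 7 high-dosed animals. Its gap to the next animal was 0.528 of the range of the group on the log2 scale, just past the 95% critical value of Dixon's test for 8 samples. The intensity was 10276 in animal 6, against 8154 to 9096 in the other high-dosed animals and 9007 to 11059 in controls. Among 33 genes tested in this way 1 had such a value, and chance alone gives about 1 in 20.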

How the results depend on the processing

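No paired analysis was made, because each array came from a different rat and the labels give no pairing. Of the 8 members 1 was called as reported and under the quantile, median, pseudocount, filter, trend, probe set and animal number settings and without high-dosed animals 8, 10 and 11. When single arrays were left out the count ran from 0 to 2, both for genes and for probe sets. An unchanged gene count did not always mean the same gene. Without control 9 Aldh1a1 was not called and Aldh3a2 was called lower. The count ran from 8 to 18 for the pathway lists (18 of 115 genes as reported). For all genes it ran from 323 to 1408 (1141 as reported, 10.6% of the genes tested). The lowest counts came without control 2 for members and lists and without control 1 for all genes. All genes called numbered 730 after median centring and 712 without high-dosed animals 8, 10 and 11. The share of higher calls among all genes was 74.2% as deposited, 63.8% after quantile normalization, 64.7% after median centring and 82.7% after centring on all probe sets, a setting chosen after seeing the data. Values near 0 turned sign: Aldh1b1 (0.0107 after centring on all probe sets), Aldh1a2 (0.0101 there and 0.0493 without animals 8, 10 and 11) and Aldh18a1 (0.0156 after quantile normalization, 0.0112 and 0.0064 in those 2 settings). With single arrays left out, Aldh1b1 ran from -0.27 to 0.24, Aldh3a1 from -0.15 to 0.027, Aldh16a1 from -0.0022 to 0.12, Aldh18a1 from -0.067 to 0.00041, Aldh1a2 from -0.064 to 0.0054, Aldh1l2 from -0.043 to 0.23 and Aldh5a1 from -0.056 to 0.21. The cause was not tested. Aldh3a1 lay under the filter at the 60th percentile.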
